A study of Mus musculus with 43 samples.

Results

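The genes described here are the cytochrome P450s (Cyp genes), the UDP-glucuronosyltransferases (Ugt genes) and the glutathione transferases (Gst genes), measured by RNA sequencing of mouse inguinal white fat, a depot under the skin of the groin. They were taken by symbol: protein-coding genes named Cyp with a number, other than Cyp51, or beginning Ugt1, Ugt2, Ugt3, Gsta, Gstm, Gstp, Gstt, Gstk, Gsto or Gstz. This gave 127 of 22622 genes, comprising 91 Cyp, 16 Ugt and 20 Gst genes. A member was described in a table if it reached 10 normalized counts in at least 4 libraries. Of the 127 members 62 did so in at least 1 of the 5 tables and 36 in all 5, while 65 did so in none, and 8 of these were listed at 0 throughout. The 62 comprised 39 Cyp, 5 Ugt and 18 Gst genes.

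The series holds 43 libraries in 9 groups. At postnatal day 28 (P28), 4 C57BL/6J wild-type libraries came from housing at 22 C and 4 from 30 C, and a further 4, from 22 C, carried floxed TrkA with Th-cre. Th-cre is active where tyrosine hydroxylase is made, sympathetic neurons among them. The wild-type controls of that group carry neither the floxed allele nor Cre, so the deletion, the floxed allele and Cre cannot be told apart. Mice with floxed Bcl6, the gene of a transcriptional repressor, were sampled without (n = 7) and with (n = 8) Prx1-cre at P25 and 22 C, and without (n = 4) and with (n = 4) Prx1-cre at 9 weeks and 4 C. Both of these groups carry the floxed allele at each age, and Prx1-cre is active in mesenchyme of the limbs and elsewhere, not in fat cells alone. C57BL/6J wild-type mice at 9 weeks were housed at 22 C (n = 4) or 4 C (n = 4). The series title names peri-weaning development and cold recruitment of beige adipocytes, the heat-producing fat cells of this depot, as the processes compared. The labels do not say whether samples of 1 group came from different animals. Each p-value therefore reflects the spread among these samples only, which may be technical.

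Cytochrome P450s are haem enzymes that insert oxygen into lipophilic molecules, with electrons passed on from NADPH by a reductase. Some of them work on the body's own sterols, fatty acids, retinoids and steroids, and others on drugs and plant compounds. Glucuronosyltransferases and glutathione transferases then join the products to glucuronic acid or glutathione, and transporters carry the conjugates out. Glutathione transferases of the alpha class also take up aldehydes that arise when lipids are oxidized. These families are best known from the liver, where nuclear receptors and the aryl hydrocarbon receptor set their transcription. The genes of the mouse Ugt1a cluster differ in their first exon and share the exons that follow.

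The tissue carried the markers of fat: all 6 of 7 listed adipocyte markers that have a row reached 10 in every library. The estimated depth ran from 3492000 to 30480000 reads per library, lowest at P28 and highest in the adult Bcl6 table. Markers of other tissues varied. The summed skeletal muscle markers (9 with a row, of 12) ran from 17.5 to 590440.0 across libraries, with the highest value in floxed Bcl6 sample 3 at 9 weeks. Gut epithelium markers ran high in some P25 and P28 libraries, which is taken up with the members they move with. Xist exceeded the Y-linked genes in 2 of 4 libraries at P28 and 22 C, 3 of 4 at 30 C, 1 of 4 of TrkA Th-cre, and 2 of 4 in each adult wild-type group. It did so in 3 of 7 floxed and 4 of 8 Prx1-cre libraries at P25 and in all 8 adult Bcl6 libraries. The Bcl6 gene total was higher, not lower, with Prx1-cre, at 2714 ± 584 against 825 ± 340.4 (SD, n = 8 and 7) at P25 and 11609 ± 2338 against 1995 ± 392 (SD, n = 4 each) at 9 weeks, so it does not check the label, and those groups are called the libraries labelled Prx1-cre.

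The promoters of 4 members are shown because these genes carry the largest or most repeated differences described here: Cyp2b10 in the cold, Cyp2f2 at P28, and Ugt1a6a and Ugt1a2 between the Bcl6 genotypes. Each run covers 250 bases before to 50 bases after the RefSeq start on GRCm38.p6, all on the plus strand. Cyp2b10 lies at chr7:25897408-25897707, Cyp2f2 at chr7:27119705-27120004, Ugt1a6a at chr1:88134559-88134858 and Ugt1a2 at chr1:88200361-88200660. The Ugt1a6a and Ugt1a2 genes begin at 88134809 and 88200611 on chromosome 1 and both end at 88220002, in the shared exons. Capitals mark matches, on either strand, to 4 short motifs: TTCNNNGAA, a core of STAT and BCL6 sites, GCGTG, the core of aryl hydrocarbon receptor sites, TGACNNNGC, the core of antioxidant response elements, and AGGTCA, a repeat unit of nuclear receptor sites. Overlap between motifs was allowed.
Cyp2b10: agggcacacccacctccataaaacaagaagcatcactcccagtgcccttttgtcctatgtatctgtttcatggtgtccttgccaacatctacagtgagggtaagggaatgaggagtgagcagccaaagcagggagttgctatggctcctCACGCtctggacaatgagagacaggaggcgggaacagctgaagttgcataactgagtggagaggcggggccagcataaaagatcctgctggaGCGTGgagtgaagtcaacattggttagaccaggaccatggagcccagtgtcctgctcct
Cyp2f2: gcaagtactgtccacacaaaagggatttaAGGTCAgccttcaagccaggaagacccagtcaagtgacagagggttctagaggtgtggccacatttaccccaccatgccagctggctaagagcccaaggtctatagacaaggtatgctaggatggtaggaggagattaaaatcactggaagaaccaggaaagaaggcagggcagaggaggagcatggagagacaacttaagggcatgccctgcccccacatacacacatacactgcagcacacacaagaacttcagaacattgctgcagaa
Ugt1a6a: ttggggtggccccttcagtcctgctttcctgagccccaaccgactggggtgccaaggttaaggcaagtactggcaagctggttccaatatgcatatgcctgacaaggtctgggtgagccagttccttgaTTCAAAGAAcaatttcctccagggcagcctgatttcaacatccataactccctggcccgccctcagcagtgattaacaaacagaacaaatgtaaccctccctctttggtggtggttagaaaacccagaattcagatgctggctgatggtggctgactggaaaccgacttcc
Ugt1a2: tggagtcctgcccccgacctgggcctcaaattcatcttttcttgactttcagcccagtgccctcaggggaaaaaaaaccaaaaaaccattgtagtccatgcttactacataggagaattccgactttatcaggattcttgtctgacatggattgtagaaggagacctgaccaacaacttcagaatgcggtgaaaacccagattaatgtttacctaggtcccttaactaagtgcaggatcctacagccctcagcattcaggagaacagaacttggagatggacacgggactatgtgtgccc

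In these windows Cyp2b10 held GCGTG 9 bases before the start and its reverse complement CACGC 101 bases before it. Cyp2f2 held AGGTCA 221 bases before the start, Ugt1a6a held TTCAAAGAA, which fits TTCNNNGAA, 121 bases before it, and Ugt1a2 held none of the 4 motifs. Such matches are common: of 32851 promoter windows of the same length, 32.4% held GCGTG, 16.3% AGGTCA, 12.4% TGACNNNGC and 8.3% TTCNNNGAA. Of the 62 described members 53 had a promoter in the table, with 68 windows, of which 26.5%, 13.2%, 11.8% and 8.82% held the motifs in the same order. A match is a description of letters and was not tested as a binding site. Promoters of Gsta4, Cyp4f17 and Cyp2d22 are not shown.

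Over the 5 comparisons members passed the test 31 times (limma adjusted p under 0.05 over all genes tested in a table), and these calls belonged to 20 different members. Of them 15 came from the Bcl6 genotypes at 9 weeks and 4 C, 7 from adult wild-type mice at 22 C and 4 C, 4 from the Bcl6 genotypes at P25, 3 from TrkA at P28 and 2 from temperature at P28. The map of fold changes shows that the adult tables hold most of the calls and that 9 of the 20 members passed in 2 or more comparisons, Cyp2f2 and Ugt1a2 in 3. A fold change is a difference of log2(normalized count + 1), first named group against control, and it understates the change of genes with low values. Counts of members or partner genes at an unadjusted p under 0.05 are given without the share of all genes at that level. They therefore cannot show an excess over that share.

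**Figure D1:**
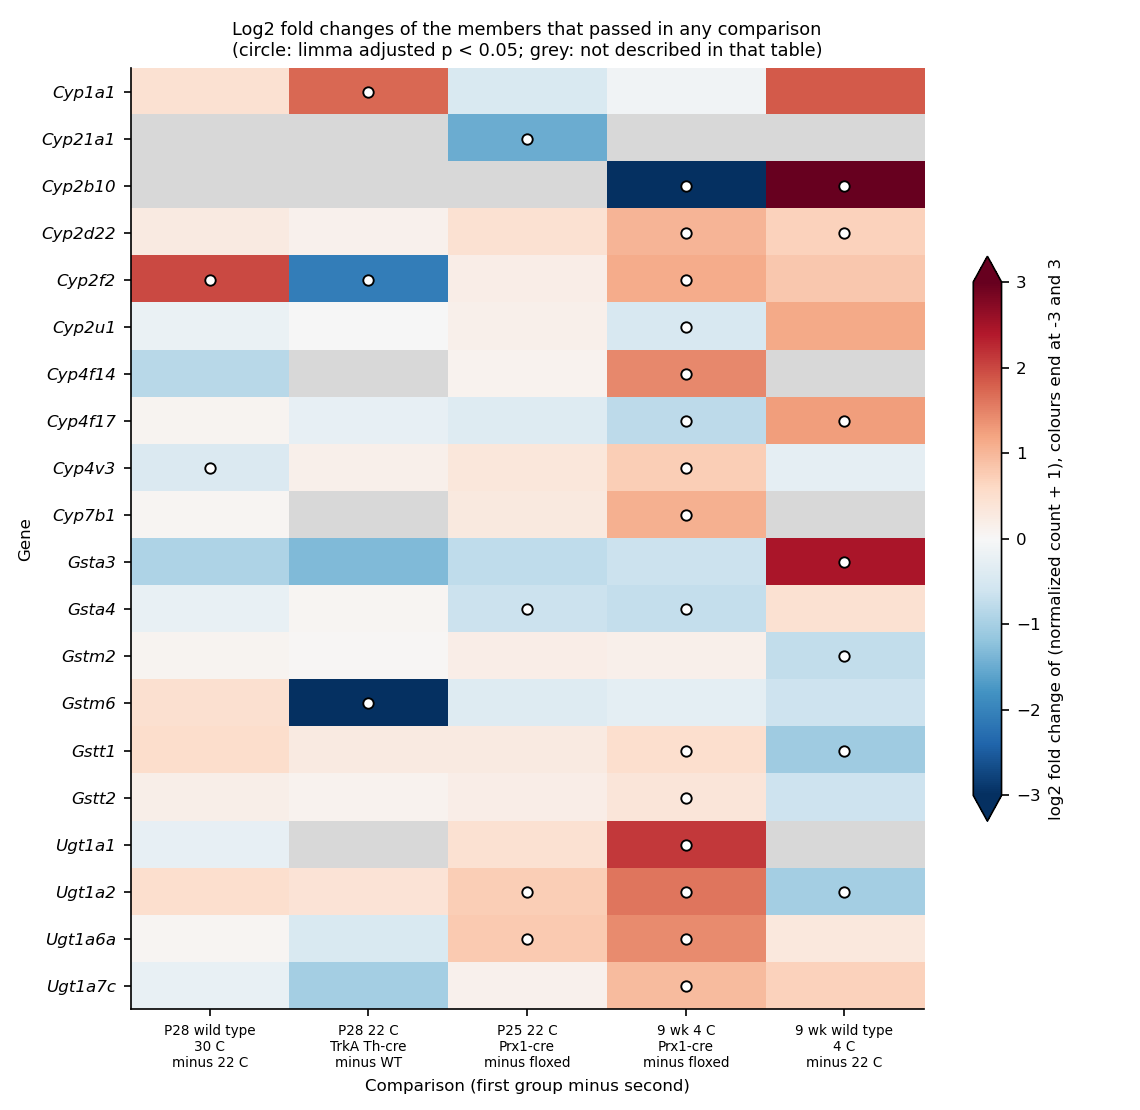
Log2 fold changes of the 20 members that passed in any of the 5 comparisons (columns, each given as first group minus second) by gene (rows). Circles mark limma adjusted p under 0.05 and grey cells members not described in that table. The 15 circles of the Bcl6 genotypes at 9 weeks and 4 C include all 4 described Ugt1a genes, and Cyp2b10 has the darkest cells of opposite colour in the adult tables.

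Per kilobase of the longest annotated transcript, glutathione transferases held the highest levels among the members in adult wild-type tissue at 22 C. Gstz1, which isomerizes maleylacetoacetate in tyrosine breakdown, stood at 2552 ± 746 normalized counts per kilobase (SD, n = 4), Gstm1 at 2363 ± 427, Gstp1 at 1297 ± 324 and Gstm2 at 854 ± 128. Gstz1 and Gstm1 did not differ beyond their spread, and the order of these 4 means was the same in the control group of each of the 5 tables. Among P450s Cyp2f2, known from the airway epithelium as an enzyme that activates naphthalene, led at 673 ± 267, ahead of Cyp4b1 at 237 ± 18.8, Cyp4v3 at 188 ± 52.9 and Cyp27a1, the sterol hydroxylase of mitochondria, at 176 ± 17.6. Cyp4v3 and Cyp27a1 lay within their spread of each other. The Ugt genes were lower, with Ugt1a2 at 131 ± 25.8, Ugt1a6a at 87.6 ± 19.1 and Ugt1a7c at 39.5 ± 15.4. Reads of near-identical genes limit such levels: 31-base words found in no other gene made up 34.9 to 47.0% of the Ugt1a transcripts. They made up 61.5% of Gstp1, which shares 38.5% with Gstp2, 71.2% of Gstm1 and 80.6% of Cyp2b10. For 40 of the 62 described members they made up over 90%.

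The first comparison asks what the cold changed in adult wild-type tissue. Of 42 described members 4 rose at 4 C (background over all 12118 genes tested: 2.03%) and 3 fell (2.44%), 14 had an unadjusted p under 0.05, and the median log2 fold change was 0.01 beside 0.02 over all genes tested. The values of 11 members did not overlap between the groups (17.3% of all genes). Cyp2b10, a P450 known as the classical target of the receptor CAR in phenobarbital-treated liver, rose the most of all members. Its normalized counts were 0.98, 2.89, 0.808 and 1.08 at 22 C and 2514, 2082, 304 and 1195 at 4 C. Every 4 C library lay far above every 22 C library, with sample 3 the lowest of the 4. The log2 fold change was 8.99 ± 0.63 (SE, limma adjusted p = 0.00177), and it passed without any 1 library. CAR itself, Nr1i3, was listed at 0 in all 8 libraries, and the related receptor PXR, Nr1i2, at 0 to 0.955 at 22 C and 0 at 4 C.

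Among the other P450s, Cyp4f17, of a subfamily that hydroxylates fatty acids and leukotrienes, stood at 87, 68.8, 59.3 and 61.5 at 22 C and at 183, 159, 158 and 157 at 4 C. The groups did not overlap, and the log2 fold change was 1.25 ± 0.16 (SE, limma adjusted p = 0.0109). Cyp2d22, a mouse member of the subfamily of the human drug-metabolizing enzyme CYP2D6, rose from 397 ± 57.9 to 637 ± 82.4 (SD, n = 4 each), at 0.68 ± 0.14 (adjusted p = 0.0382). Cyp4b1 and the fatty acid hydroxylase Cyp2u1 were higher in each 4 C library than in any 22 C library, yet missed the threshold, at 0.62 ± 0.16 (adjusted p = 0.0592) and 1.14 ± 0.35 (adjusted p = 0.0947). Cyp1a1, the aryl hydrocarbon receptor's best known target, stood at 84, 56.7, 17.8 and 49.4 at 22 C and 197, 148, 81.7 and 304 at 4 C, overlapped and did not pass (1.83 ± 0.52, adjusted p = 0.081).

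Of the 3 described Ugt1a genes 1 fell. Ugt1a2 counted 314, 319, 205 and 323 at 22 C and 108, 159, 118 and 189 at 4 C, and the log2 difference was -1.02 ± 0.22 (SE, limma adjusted p = 0.0448). Each 4 C library lay below each 22 C library. The sum over the 7 Ugt1a genes was 721 ± 87.3 at 22 C and 732 ± 159.7 at 4 C (SD, n = 4 each), so the total differed by less than its spread, and because these transcripts share exons the split of reads among them is uncertain. Ugt1a6a and Ugt1a7c stood at 0.31 ± 0.24 and 0.68 ± 0.34 on the log2 scale and did not pass.

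Glutathione transferases went both ways. Gsta3, an alpha-class enzyme, counted 641, 609, 342 and 570.1 at 22 C and 3077, 2441, 1696 and 5312 at 4 C, without overlap, at 2.45 ± 0.35 (SE, limma adjusted p = 0.0151). Gstt1, of the theta class, counted 789, 846, 516 and 666 at 22 C and 299.6, 395, 389 and 259.5 at 4 C, and fell by 1.06 ± 0.20 (adjusted p = 0.0311) on the log2 scale. Gstm2, of the mu class, fell from 908 ± 136 to 546 ± 94.8 (SD, n = 4 each; adjusted p = 0.0422). The second theta gene, Gstt2, was lower in each 4 C library and did not pass (-0.63 ± 0.17, adjusted p = 0.0669). Gsta4, which conjugates the aldehyde hydroxynonenal, stood at 0.46 ± 0.23 (adjusted p = 0.261). Gstz1, Gstm1 and Gstp1, the most abundant members, stood at 0.37 ± 0.26, -0.05 ± 0.18 and -0.15 ± 0.18 and did not pass.

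**Figure D2:**
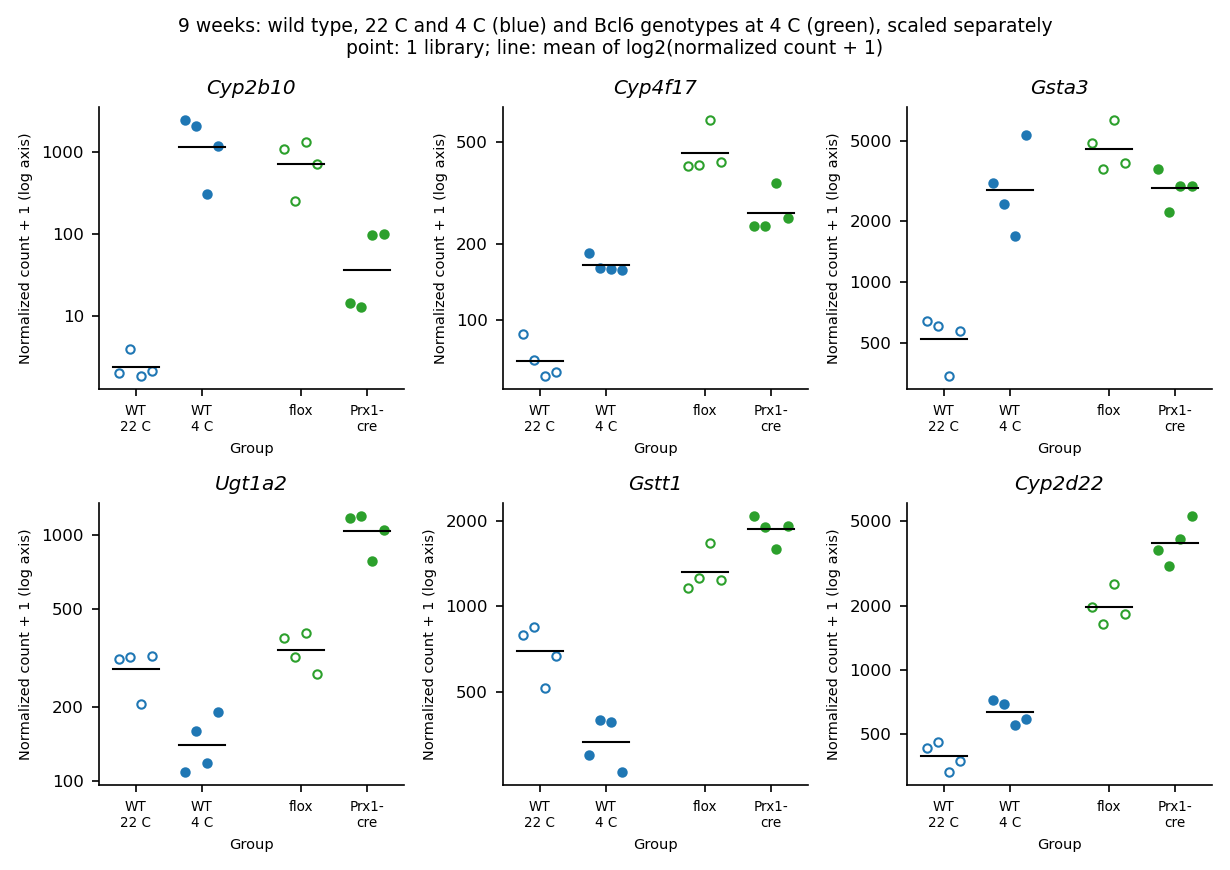
Normalized counts plus 1 (log axis) of 6 members in the adult groups, 1 point per library, with a line at the mean of log2(normalized count + 1). Blue is the wild-type table, green the Bcl6 table at 4 C, and the tables are scaled separately, so levels are compared only within a colour. Cyp2b10 rises from under 3 at 22 C to 304 or more at 4 C in wild type, and lies between 11.6 and 98.9 in the libraries labelled Prx1-cre.

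These calls were sensitive to single libraries. Cyp4f17 and Gsta3 lost theirs without 4 C sample 1 (adjusted p = 0.0531 and 0.065). Gstm2 passed only without 22 C sample 3 or 4 C sample 4, and Gstt1 and Ugt1a2 only without 22 C sample 3 (other left-out values 0.0742 to 0.124, 0.0504 to 0.11 and 0.0521 to 0.126). The call of Cyp2d22 was lost whichever of the 8 libraries was left out (0.0512 to 0.121), and that of Ugt1a2 also with no filter on low values (0.0538). The count of 7 became 3 or 4 without any 1 library other than 22 C sample 3 (6) and 4 C sample 1 (1). Calls over all genes fell as well, from 4.47% to 2.9% without 22 C sample 3 and 0.297% without 4 C sample 1. Without any other library they were 0.594% to 1.56%, so the loss was general. Summed muscle markers ran from 99.9 to 52199 at 22 C and 17.5 to 35992 at 4 C. With the muscle score, the epithelium score or the sex indicator in the fit, the 7 calls were kept and 14, 14 and 11 members passed, while calls over all genes went from 4.47% to 15.6%, 24.3% and 18.4%, so the rise was general. Brown and beige adipocyte markers summed to 1012 to 3605 at 22 C and 12259 to 55441 at 4 C and Schwann cell markers to 2908 to 3789 and 1346 to 1471, and their part in these results was not tested. In bulk tissue, fewer cells of a type and less RNA per cell cannot be told apart.

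Partner genes were counted over 8 lists of enzymes that feed, carry or follow these families. Of 77 tested in the adult cold comparison 6 rose and none fell, with 23 at an unadjusted p under 0.05. Of 12 classical targets of Nfe2l2, a transcription factor of the oxidant response, 3 rose: Osgin1 from 40.3 ± 14.3 to 174 ± 52.6, Srxn1, which repairs peroxiredoxins, from 348 ± 56 to 763 ± 203, and G6pdx, which supplies NADPH, from 2367 ± 434 to 4402 ± 858 (SD, n = 4 each). The median of this list was 0.42 beside 0.02 over all genes. Of 11 genes of glutathione supply and turnover 1 rose, glutathione reductase Gsr at 0.70 ± 0.15 (adjusted p = 0.0436), and of 19 other oxidation and conjugation enzymes 2 rose, Aldh1a1 at 0.90 ± 0.13 (adjusted p = 0.0152) and Fmo1 at 1.20 ± 0.26 (adjusted p = 0.0448). All 6 of these calls were lost without some single library. None of the 10 tested electron donors of P450s passed, with 3 at an unadjusted p under 0.05.

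The second comparison asks how the Bcl6 genotypes differed in the cold at 9 weeks. Of 50 described members 11 were higher in the libraries labelled Prx1-cre (background over 13496 genes: 9.01%) and 4 lower (5.46%), and the values of 16 did not overlap between the groups (22.3% of all genes). The median log2 fold change was 0.03 beside -0.02 over all genes, and 20 members had an unadjusted p under 0.05. The table is the deepest of the series and gave the most calls over all genes.

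Among the P450s Cyp2b10 fell the most. It counted 1111, 252, 1341 and 725 in the floxed libraries and 13.1, 11.6, 97.2 and 98.9 in those labelled Prx1-cre. Every library labelled Prx1-cre lay below every floxed one, and samples 1 and 2 of it lay below samples 3 and 4. The log2 fold change was -4.32 ± 0.83 (SE, limma adjusted p = 0.0117), and it passed without any 1 library. Cyp4f17 fell from 459 ± 101 to 265 ± 53.4 (SD, n = 4 each), at -0.79 ± 0.18 (adjusted p = 0.0222), and Cyp2u1 from 273 ± 34.2 to 196 ± 23.8, at -0.48 ± 0.13 (adjusted p = 0.048).

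Other P450s rose. Cyp2f2 counted 2323, 2176, 3070.4 and 4303 and, with Prx1-cre, 7465, 4866, 6378 and 6403, without overlap, at 1.12 ± 0.22 (SE, limma adjusted p = 0.0127). Cyp2d22 rose from 1993 ± 388 to 4043 ± 945 (SD, n = 4 each), at 1.01 ± 0.18 (adjusted p = 0.0089). Cyp4v3, the mouse counterpart of the fatty acid hydroxylase mutated in Bietti crystalline dystrophy, rose from 1759 ± 271 to 2940.1 ± 466, at 0.74 ± 0.15 (adjusted p = 0.0138). Lower in level, Cyp4f14, which inactivates leukotrienes, went from 9.46 ± 4.68 to 26.7 ± 9.75, and Cyp7b1, an oxysterol hydroxylase, from 16.8 ± 5.05 to 36.7 ± 12.1 (adjusted p = 0.0371 and 0.0472). Cyp4b1 and Cyp27a1 stood at 0.02 ± 0.21 and 0.57 ± 0.21 and did not pass, though Cyp27a1 passed with the muscle score, the epithelium score or library weights in the fit and without floxed sample 3.

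All 4 described Ugt1a genes rose with Prx1-cre at 9 weeks. Ugt1a6a, which conjugates small phenols, counted 629.7, 620.1, 622 and 636 in the floxed libraries and 2047, 1578, 1550.2 and 1596 in those labelled Prx1-cre. The floxed libraries lay within a few counts of each other and the groups were far apart, at 1.42 ± 0.09 (SE, limma adjusted p = 0.000182). Ugt1a2 counted 382, 320.5, 401 and 271 against 1173, 1200.1, 787 and 1049, at 1.61 ± 0.17 (SE, limma adjusted p = 0.00116). Ugt1a7c rose from 315 ± 52.7 to 607 ± 99.6 (SD, n = 4 each), at 0.94 ± 0.15 (adjusted p = 0.00556), and Ugt1a1, the bilirubin-conjugating enzyme, from 5.15 ± 4.29 to 22.9 ± 7.38, at 2.11 ± 0.45 (adjusted p = 0.0175). The summed Ugt1a count was 1300.3 ± 93.3 in floxed and 3386 ± 467 in Prx1-cre libraries (SD, n = 4 each), so here the total of the cluster moved as well. Since these genes share most of their bases, the 4 calls are not 4 independent measurements.

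Of the glutathione transferases Gsta4 fell. It counted 1216, 1149.9, 1238 and 1224 in floxed and 669.8, 729, 889 and 669 in Prx1-cre libraries, without overlap, at -0.72 ± 0.10 (SE, limma adjusted p = 0.00301). The other described alpha gene, Gsta3, stood at -0.65 ± 0.20 (adjusted p = 0.064). Of the 3 theta genes Gstt1 rose from 1330.1 ± 229 to 1872 ± 206 and Gstt2 from 1638 ± 175 to 2091 ± 176 (SD, n = 4 each; adjusted p = 0.034 and 0.0391). None of the 6 mu, 2 pi and 3 kappa, omega and zeta genes passed, with Gstm1 at -0.03 ± 0.16, Gstp1 at -0.07 ± 0.11 and Gstz1 at -0.29 ± 0.16.

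**Figure D3:**
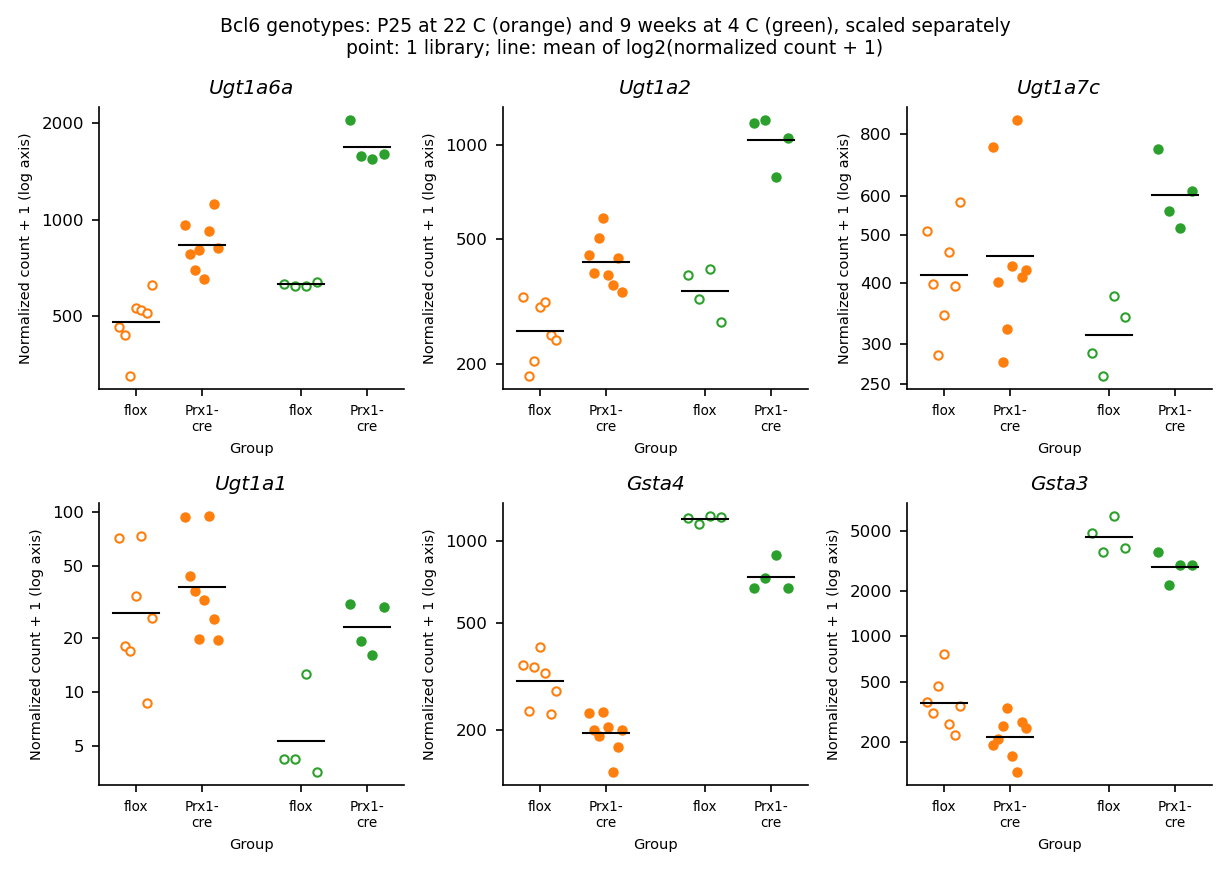
Normalized counts plus 1 (log axis) of 4 Ugt1a and 2 alpha-class Gst genes by Bcl6 genotype, 1 point per library, with a line at the mean of log2(normalized count + 1). Orange is P25 at 22 C (7 floxed, 8 Prx1-cre), green 9 weeks at 4 C (4 and 4), scaled separately. The Prx1-cre points of Ugt1a6a and Ugt1a2 lie above all floxed points at both ages, while those of Ugt1a7c overlap at P25.

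Of the 15 calls 8 held without any 1 library: Cyp2b10, Cyp2d22, Cyp2f2, Cyp4v3, Gsta4, Ugt1a2, Ugt1a6a and Ugt1a7c. The call of Cyp4f17 was lost without Prx1-cre sample 1, 2 or 4 (0.0548 to 0.0671) and that of Ugt1a1 without floxed sample 1 or 2 or Prx1-cre sample 1 (0.0545 to 0.0572). Gstt1 and Cyp4f14 lost theirs without any sample other than the third of either group (0.0772 to 0.0948 and 0.0574 to 0.101). Cyp7b1 passed only without floxed sample 4 or Prx1-cre sample 2, Cyp2u1 only without floxed sample 4, and Gstt2 only without floxed sample 3 (other values 0.0539 to 0.12, 0.0528 to 0.134 and 0.0521 to 0.109). The count of 15 became 9 without floxed sample 1 or 2 or Prx1-cre sample 4, and 8 without Prx1-cre sample 1. Calls over all genes fell in those fits too, from 14.5% to between 7.77% and 10.9%. Floxed sample 3 held 590440.0 summed muscle counts, against at most 24135 in the other 7 libraries, and without it 17 members and 26.2% of all genes passed, against 14.5% with it. Brown and beige markers also differed, at 72192 to 113952 in floxed and 9677 to 36099 in Prx1-cre libraries, and macrophage markers at 8088 to 10924 and 14868 to 25279. Their part in these results was not tested, except that with the muscle score in the fit Cyp7b1, Cyp2u1, Cyp4f17 and Gstt2 lost their calls (0.176, 0.121, 0.0632 and 0.0508). Without the filter on low values Cyp7b1 and Cyp2u1 lost theirs as well (0.0675 and 0.0604), and under quantile normalization Cyp4f14 and Cyp2u1 (0.0597 and 0.066).

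Of 78 partner genes tested 11 rose and 11 fell, with 34 at an unadjusted p under 0.05. Glutathione supply and turnover held 3 lower genes of 11, Gss, the glutathione synthase, at -0.38 ± 0.06 (adjusted p = 0.00685), Oplah at -0.97 ± 0.17 (adjusted p = 0.00839) and Gclm, part of the first enzyme of glutathione synthesis, at -0.30 ± 0.07 (adjusted p = 0.0267), and 1 higher, Ggt5. Nfe2l2 itself was lower at -0.22 ± 0.06 (adjusted p = 0.0437), and of its 12 tested targets Gclm and Srxn1 were lower and Hmox1 higher. Of 7 genes listed with the membrane-bound and sigma-class transferases, not all of them transferases, 3 rose and 2 fell. Those that rose were Mgst3 at 1.24 ± 0.23 (adjusted p = 0.00975), the prostaglandin D synthase Hpgds at 1.29 ± 0.24 (adjusted p = 0.00977) and Alox5ap. Those that fell were Mgst2 at -1.06 ± 0.15 (adjusted p = 0.00365) and the leukotriene C synthase Ltc4s at -0.70 ± 0.17 (adjusted p = 0.0271). Of 8 efflux transporters Abcc5, Abcc2 and Abcb1a rose. Fmo2 and Aldh1a1 were higher and Ces1f, the epoxide hydrolase Ephx2 and Fmo1 lower among 19 other oxidation and conjugation enzymes. Of 10 electron donors Fdx1 fell, at -0.46 ± 0.11 (adjusted p = 0.0251), and of 4 genes of glucuronate supply none but the glucuronidase Gusb passed, which rose. Of these 22 calls 9 held without any 1 library.

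Members called in both adult tables can be set side by side, since the tables share no library. Of 41 members tested in both, 7 passed in the temperature table and 12 in the Bcl6 table, and 5 passed in both (71.4% of the first and 41.7% of the second). Cyp2b10 and Cyp4f17 rose in the cold and were lower with Prx1-cre, and Gstt1 and Ugt1a2 fell in the cold and were higher with Prx1-cre. Cyp2d22 was higher in both. Over all 12075 genes tested in both, 200 passed in both (37% of 541 and 11.1% of 1808), of which 177, or 88.5%, moved in opposite directions, so 4 of 5 members is near the background share. Gsta3, which rose in the cold, did not pass in the Bcl6 table.

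The third comparison is between the same genotypes at P25 and 22 C. Of 56 described members 2 were higher with Prx1-cre (background over 13209 genes: 1.54%) and 2 lower (1.86%), with a median log2 fold change of 0.02 beside 0.00 over all genes, and 14 had an unadjusted p under 0.05. Only Ugt1a6a and Ugt1a2 had values that did not overlap between the groups, 2 of 56 members (1.26% of all genes). Ugt1a6a stood at 324 at the lowest, 509 at the median and 625 at the highest in the 7 floxed libraries. In the 8 libraries labelled Prx1-cre it stood at 649.9 at the lowest, 809 at the median and 1121 at the highest. The log2 fold change was 0.79 ± 0.13 (SE, limma adjusted p = 0.00276). Ugt1a2 stood at 181 at the lowest, 246 at the median and 325 at the highest in floxed libraries and at 337 at the lowest, 412 at the median and 584 at the highest with Prx1-cre, 0.74 ± 0.15 (SE, limma adjusted p = 0.00821). Ugt1a7c and Ugt1a1 stood at 0.12 ± 0.23 and 0.47 ± 0.49 and did not pass. The summed Ugt1a count was 1209 ± 224 in floxed and 1806 ± 308 in Prx1-cre libraries (SD, n = 7 and 8).

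Gsta4 stood at 229 at the lowest, 325 at the median and 406 at the highest in floxed libraries and at 139 at the lowest, 199.9 at the median and 233 at the highest with Prx1-cre. The ranges met only at their edges, and the log2 fold change was -0.64 ± 0.14 (SE, limma adjusted p = 0.0147). Cyp21a1, the steroid hydroxylase of the adrenal cortex, fell from 39.9 ± 19.4 (SD, n = 7) to 14 ± 7.61 (SD, n = 8), at -1.49 ± 0.37 (adjusted p = 0.0379). It is a low gene, and 33.2% of its 31-base words also occur in the pseudogene Cyp21a2-ps. The calls of Ugt1a6a, Ugt1a2 and Gsta4 held without any 1 of the 15 libraries. That of Cyp21a1 was lost without any 1 of 10 of them, floxed M1, M2, M3, F2 or F3 or Prx1-cre M1, M3, M4, F3 or F4 (0.0563 to 0.0823), in the codes of the table's columns. It was lost too without the filter on low values or with the muscle score in the fit (0.0516 and 0.0898). Gsta3 (-0.75 ± 0.25, adjusted p = 0.128), Cyp4f17 (-0.39 ± 0.12, adjusted p = 0.0962) and Cyp26b1, which clears retinoic acid (2.55 ± 0.99, adjusted p = 0.215), did not pass. Cyp2b10 was too low to be described here, at 0 to 35.6 in floxed and 0 to 2.47 in Prx1-cre libraries.

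Of 81 partner genes tested at P25, 3 rose and 6 fell, with 19 at an unadjusted p under 0.05. Mgst3 rose from 1128 ± 252 to 2088 ± 233 and Ltc4s fell from 514 ± 122 to 266 ± 26.9 (SD, n = 7 and 8). Among 21 other oxidation and conjugation enzymes Ces1f, Fmo1 and Ephx2 fell, at -1.14 ± 0.15 (adjusted p = 0.000286), -1.11 ± 0.25 (adjusted p = 0.0201) and -0.65 ± 0.16 (adjusted p = 0.0398), and Aldh1a1 rose. Of 8 transporters Abcc2 rose and Abcc1 fell, and Oplah was the 1 of 11 glutathione supply genes to fall. None of 10 electron donors and 12 Nfe2l2 targets passed, with 1 of each at an unadjusted p under 0.05. Of these 9 calls 4 held without any 1 library. Brown and beige markers summed to 6737 to 19273 in floxed and 1561 to 3923 in Prx1-cre libraries, and their part in the members' values was not tested.

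The column codes of the P25 table begin with F or M, letters that no label explains, and Xist exceeded the Y-linked genes in all 7 libraries coded F and in none of the 8 coded M. A comparison of F with M, with genotype in the fit, was chosen after seeing the data. It called 3 of 56 members, against 1.6% of 13209 genes. Cyp3a57, a P450 of the subfamily that oxidizes many drugs and steroids, stood at 20.8 ± 11.1 in F and 0.677 ± 1.3 in M libraries (SD, n = 7 and 8). It was higher in F by 3.88 ± 0.42 (SE, limma adjusted p = 0.000134) on the log2 scale. With M so low, the filter on low values admitted Cyp3a57 through the F libraries only. That favoured its direction in advance, and it is among the 3 members counted above. Cyp2d22 stood at 570.0 ± 194 in F and 985 ± 242 in M, a difference of -0.86 ± 0.16 (SE, limma adjusted p = 0.00895). Cyp1a1 stood at 101 ± 37.6 and 286 ± 185, a difference of -1.34 ± 0.32 (SE, limma adjusted p = 0.0453). Gsta4, Ugt1a6a and Ugt1a2, called between the genotypes, did not pass between F and M.

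Of 45 members tested at both ages, 3 passed at P25 and 14 at 9 weeks, and all 3 passed at both, in the same direction: Ugt1a6a and Ugt1a2 higher and Gsta4 lower. Over 12816 genes 311 passed at both (69.7% of 446 and 16.4% of 1898), 309 of them in the same direction. The difference between the genotype effects was tested directly, as the 9-week less the P25 fold change with a t reference. It passed for 0 of 45 members (background 0.297% of genes), with 9 at an unadjusted p under 0.05, and for 2 members, Ugt1a2 and Ugt1a6a, with a normal reference. The difference was 0.87 ± 0.22 (SE, adjusted p = 0.133) for Ugt1a2, 0.63 ± 0.16 (SE, adjusted p = 0.133) for Ugt1a6a and -0.08 ± 0.17 (SE, adjusted p = 0.94) for Gsta4. The larger 9-week folds of the Ugt1a genes are therefore not shown to differ from those at P25. Age, temperature, depth and the share of libraries with high Xist all differ between the 2 tables and cannot be told apart.

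The fourth comparison asks what housing at 30 C changed at P28. Of 50 described members 1 rose (background over 12283 genes: 1.29%) and 1 fell (3.17%), with 8 at an unadjusted p under 0.05 and a median log2 fold change of 0.06 beside 0.01 over all genes. The values of 4 members did not overlap (12.9% of all genes). Cyp2f2 counted 88.4, 124, 232 and 232 at 22 C and 719.6, 659, 594 and 517 at 30 C. The groups were well apart, at 1.98 ± 0.30 (SE, limma adjusted p = 0.00951), and the call held without any 1 library. Cyp4v3 counted 314, 303, 258 and 293 at 22 C and 217, 199, 219 and 236 at 30 C, also without overlap, at -0.42 ± 0.09 (SE, limma adjusted p = 0.0292), but lost its call without 22 C sample 1, 2 or 4 or 30 C sample 1, 2 or 3 (0.0693 to 0.0876). Gstt1 and Gstz1, the others without overlap, stood at 0.52 ± 0.13 (adjusted p = 0.0581) and -0.26 ± 0.07 (adjusted p = 0.0861). None of the 5 described Ugt and 18 Gst genes passed. The summed Ugt1a count was 665 ± 319 at 22 C and 655 ± 255 at 30 C (SD, n = 4 each), and Gstz1, Gstm1 and Gstp1 averaged 3272 ± 307, 1161 ± 87.1 and 596 ± 55.9 at 22 C and 2721 ± 77.8, 1298 ± 116 and 554 ± 107 at 30 C. The count of 2 became 1 without 22 C sample 2 or 4 or 30 C sample 2 or 3. Calls over all genes fell in those fits too, from 4.45% to between 1.43% and 2.43%. Muscle markers summed to 335 to 984 at 22 C and 352 to 17882 at 30 C, and with the muscle score in the fit neither member passed, nor did most genes called without it, with 0.554% of all genes called against 4.45% (adjusted p = 0.0991 for Cyp2f2 and 0.174 for Cyp4v3). Brown and beige markers, at 2167 to 4201 and 639.7 to 1304, and macrophage markers, at 3731 to 4957 and 5273 to 6512, did not overlap between 22 C and 30 C, and their part was not tested.

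Of 80 partner genes tested none rose and 6 fell at 30 C, with 21 at an unadjusted p under 0.05. Of 12 Nfe2l2 targets G6pdx, Taldo1 and Pgd fell, at -0.66 ± 0.11 (adjusted p = 0.0129), -0.64 ± 0.11 (adjusted p = 0.0165) and -0.82 ± 0.16 (adjusted p = 0.0285). Cyb5b, the cytochrome b5 of the outer mitochondrial membrane, fell from 2305 ± 331 to 1457 ± 143 (SD, n = 4 each), as the 1 of 10 electron donors to pass. Of 21 other oxidation and conjugation enzymes 2 fell, among them Aldh1a7 at -0.86 ± 0.13 (adjusted p = 0.0104). Of these 6 calls 2 held without any 1 library.

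The fifth comparison sets TrkA Th-cre against wild type at P28 and 22 C, and uses the same 4 wild-type libraries as the temperature comparison, so the 2 are not independent. Of 39 described members 1 was higher (background over 11899 genes: 1.34%) and 2 lower (1.32%), a split of 1 to 1 under quantile normalization, with 10 at an unadjusted p under 0.05. The median log2 fold change was -0.07 beside -0.01 over all genes, and the values of 5 members did not overlap (11.2% of all genes). Cyp1a1 counted 14.8, 9.61, 17.8 and 27.9 in wild-type and 59.8, 59, 75.2 and 38.2 in TrkA Th-cre libraries, without overlap, at 1.73 ± 0.32 (SE, limma adjusted p = 0.0253). Its sister gene Cyp1b1 stood at 0.54 ± 0.22 (adjusted p = 0.225) and the aryl hydrocarbon receptor gene, Ahr, at 106 ± 10.2 and 97.5 ± 7.29 (SD, n = 4 each). Cyp2f2 counted 78, 109, 205 and 204 and, with Th-cre, 52.4, 30.3, 42.3 and 15.1, without overlap, at -2.07 ± 0.41 (SE, limma adjusted p = 0.0303).

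Gstm6, a low mu-class gene, counted 10.4, 18.2, 16.5 and 15.7 in wild-type and 0, 2.42, 0 and 3.24 in TrkA Th-cre libraries. All 4 of the latter lay under all of the former, at -3.03 ± 0.62 (SE, limma adjusted p = 0.0338), on few reads. Only the 4 wild-type libraries reached 10, so the filter admitted Gstm6 through the group where it was high. That fixed its direction and lack of overlap in advance, and it is among the lower and non-overlapping members counted above. With no filter on low values its call was kept. Under quantile normalization it did not pass (0.0519). Cyp27a1 was higher and Cyp4f16 lower without overlap, and neither passed (0.55 ± 0.14, adjusted p = 0.0716, and -0.36 ± 0.13, adjusted p = 0.168). Gsta3 and Ugt1a7c had larger but scattered differences, at -1.33 ± 0.41 (adjusted p = 0.12) and -1.02 ± 0.52 (adjusted p = 0.323), and the summed Ugt1a count was 586 ± 283 in the wild-type group and 369.7 ± 93.4 with TrkA Th-cre (SD, n = 4 per group). Each of the 3 calls depended on single libraries: that of Cyp1a1 was lost without wild-type sample 2 or Th-cre sample 1, 2 or 3 (0.0618 to 0.0741), and those of Cyp2f2 and Gstm6 without wild-type sample 2, 3 or 4 or Th-cre sample 1, 2 or 3 (0.0506 to 0.0973 and 0.0543 to 0.121). No member passed without wild-type sample 2 or without Th-cre sample 1, 2 or 3, and 1 did without wild-type sample 3 or 4, while 6 passed without Th-cre sample 4 and 7 without wild-type sample 1. Calls over all genes, 2.66% with every library, were 0.84% to 1.15% in the fits where no member passed. They were 2.31% without wild-type sample 3, 0.782% without wild-type sample 4, 7.77% without Th-cre sample 4 and 2.48% without wild-type sample 1. Muscle markers did not overlap between the groups, at 299.9 to 879 in wild-type and 1239 to 6593 in TrkA Th-cre libraries. With the muscle score in the fit no member and 3 of 11899 genes passed, against 317 genes without it. The score itself did not overlap, at 4.68 to 5.54 and 6.70 to 8.77, so this fit cannot tell muscle content from genotype. Macrophage markers, at 3307 to 4357 and 5729 to 6925, and adipose progenitor markers, at 5029 to 6946 and 7229.9 to 8631, were higher without overlap in the TrkA Th-cre libraries. The sum of the 8 hepatocyte markers was lower without overlap, at 159 to 275 in wild-type and 34.1 to 148 in TrkA Th-cre libraries. Only 1 of the 8 reached 10 in every library of either group. Alb alone stood at 135 to 250 in wild-type and 14.1 to 119 in TrkA Th-cre libraries. Ahsg was at 0 in both groups and Ttr at 0 in every TrkA Th-cre library. The part of these lists was not tested. Of 78 partner genes 2 fell and none rose, with 19 at an unadjusted p under 0.05: Cyb5b from 2028 ± 286 to 1227 ± 63.5 and Mgst2 from 68.3 ± 15 to 21.4 ± 6.04 (SD, n = 4 each).

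**Figure D4:**
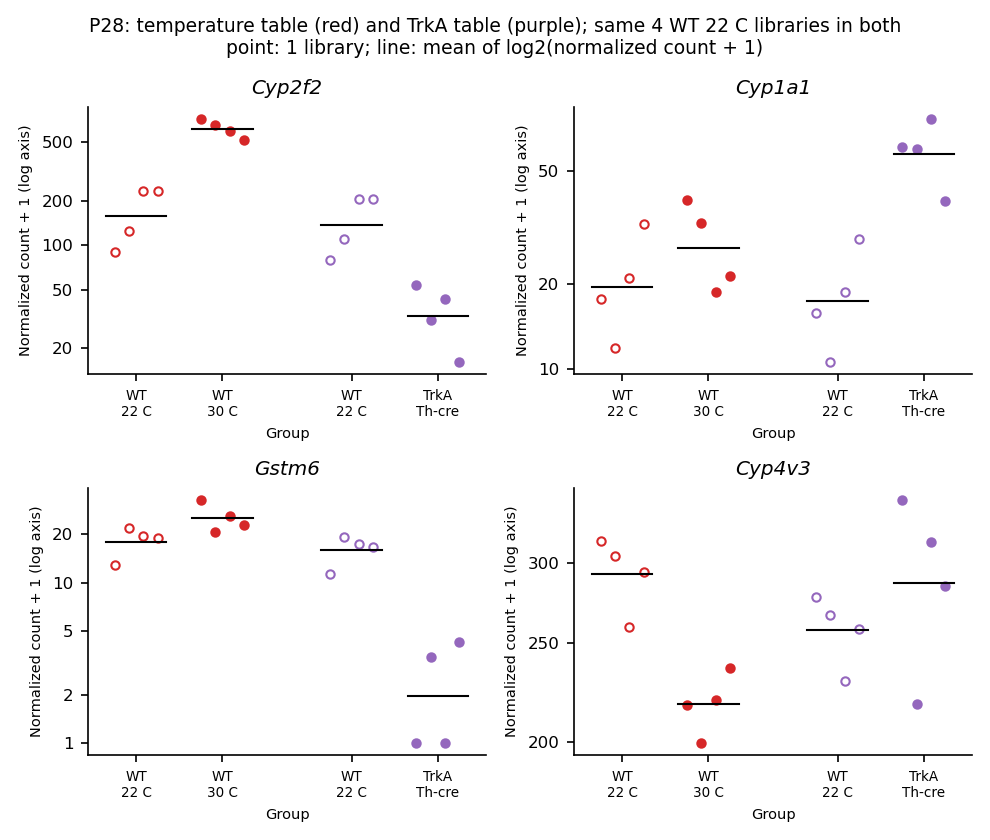
Normalized counts plus 1 (log axis) at P28 of the 4 members that passed in either comparison, 1 point per library, with a line at the mean of log2(normalized count + 1). Red is the temperature table and purple the TrkA table, which hold the same 4 wild-type 22 C libraries, scaled separately. Cyp2f2 lies above its controls at 30 C and below them with TrkA Th-cre.

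A group of members varied between libraries more than between groups, and was picked after its values were seen, so the group has no test of its own. Cyp2c55, a P450 known from colon and liver, counted 7.08, 316, 1957 and 756 at P28 and 22 C and 468, 773, 31.5 and 19.3 at 30 C. It was high in 22 C samples 2, 3 and 4 and 30 C samples 1 and 2, and low in 22 C sample 1 and 30 C samples 3 and 4. Ugt2b34 counted 2.36, 44.3, 369.9 and 104 at 22 C and 75.7, 149, 5.05 and 0 at 30 C, and Cyp2c65 and Cyp3a13 had their highest values in 22 C sample 3 as well, at 119 and 62.6. The gut epithelium gene Vil1, villin, counted 7.08, 158, 655 and 295 and 647, 524, 40.3 and 10.1 in the same libraries, and Hnf4a, a transcription factor of gut and liver, 13.8, 143, 679 and 235 and 569.8, 341, 29.5 and 9.81.

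The 7 gut epithelium markers summed to 215 to 6539 at 22 C and 352 to 7314 at 30 C, with 4 of 7 at 10 or more in every library of either group. In the TrkA table the sum was 191 to 5822 in wild-type and 128 to 238 in TrkA Th-cre libraries. In the latter 1 of 7 reached 10 in every library, Lgals4, at 117 to 195. Cyp2c55 there counted 13.1, 18.2, 15.1 and 2.16 with Th-cre. Its fold change of -4.34 ± 1.41 (adjusted p = 0.135) did not pass, and became -5.98 ± 0.71 (adjusted p = 0.00369) without wild-type sample 1, when Ugt2b34 passed as well at -4.78 ± 0.84 (adjusted p = 0.0211). At P25 Cyp2c55 ran from 255 to 1599 in floxed and 177 to 2458 in Prx1-cre libraries, where the markers summed to 1737 to 4386 and 1327 to 5802. In adult wild-type mice Cyp2c55 reached at most 1.93 and in the adult Bcl6 table at most 2.72. The same markers summed to 168 to 366 at 22 C and 229 to 411 at 4 C in adult wild type. In adult floxed and Prx1-cre libraries they summed to 1348 to 1471 and 922 to 1537. Lgals4 alone stood at 164 to 351 and 220 to 400, and at 1328 to 1454 and 893 to 1511, in the same groups. In the adult wild-type table Hnf4a, Vil1, Fabp2 and Cdx1 reached at most 9.82, 3.88, 1.15 and 0.983. Hnf4a, Vil1 and Fabp2 reached at most 3.98, 22.1 and 2.17 in the adult Bcl6 table, where the gut transcription factor Cdx1 stood at 0. The part of gut-type transcripts in these members' levels was not tested.

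**Figure D5:**
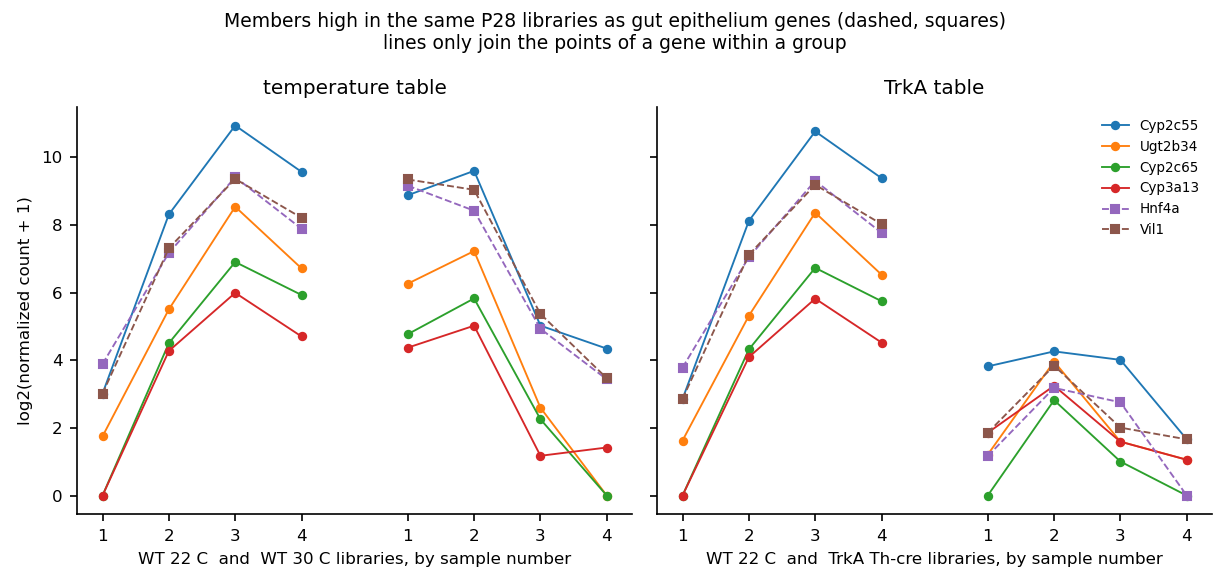
Log2(normalized count + 1) of 4 members (circles, solid lines) and the gut epithelium genes Hnf4a and Vil1 (squares, dashed lines) in each P28 library, by sample number, in the temperature table (left) and the TrkA table (right), which share the wild-type 22 C libraries. Lines only join points of a gene within a group. All 6 genes are high in wild-type 22 C samples 2, 3 and 4 and 30 C samples 1 and 2 and low in the other libraries.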

How the data were processed

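Inguinal fat RNA from 43 samples was made into libraries with a TruSeq Stranded mRNA kit, per the labels' protocols. The signal deposited for each gene is a normalized count, in 5 tables, 1 for each comparison. Per the submitters' processing notes, the authors used kallisto and DESeq2 with mm10; for both, the version is not given in the sources used here. Tables were normalized separately, so levels were compared only within a table. The 4 wild-type P28 libraries at 22 C stand in both P28 tables. Of 22622 Entrez identifiers 21 matched no symbol. At P25 the column codes (F or M with a number) fit no title and gave the group only.

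Depth was estimated from the spacing of low values, taken as 1 read: 3824000 to 6422000 reads in the P28 temperature table, 3492000 to 6423000 in the TrkA table, 5003000 to 15848000 at P25, 16761000 to 30480000 in the adult Bcl6 table and 6311000 to 8697000 in the adult wild-type table. Within a tolerance of 0.02 reads, 39.3 to 80.4% of low values were whole, so whole reads were not recovered for nearly all genes and no count model was used.

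Genes reaching 10 in at least 4 libraries were tested with limma 3.58.1 in R 4.3.3 on log2(value + 1) with its mean-variance trend, 1 table at a time, with Benjamini-Hochberg adjustment over all genes of the table, with a threshold of 0.05. The fit was tested on simulated data. Effects of the 2 Bcl6 tables were compared by the difference of fold changes over its standard error. Named members are those that passed (at most the 12 with the smallest p in a direction), the 4 highest of each family in a table and a panel of 21, and up to 4 passing genes of each partner list. The members and lists were chosen with earlier results of these data known. Alternatives were other scalings, pseudocounts and filters, library weights, a replicate block, covariates for muscle, epithelium and sex, and each library left out. Promoters are from RefSeq on GRCm38.p6. Shared 31-base words were counted over annotated transcripts. Panel genes Cyp2e1 and Gsto1 were not analysed here, and the values of 2 genes outside the families are not reported here. Genes named outside this rule, such as Cyp1a1 in the adult cold, the Cyp2c55 group, Nr1i2, Nr1i3 and Ahr, were chosen after their values were seen. Plots used matplotlib 3.10.9 under Python 3.11.15.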

Additional observations from a re-analysis of the deposited data

Results flagged for a closer look

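In 62 groups of the called members, 7 had 1 library far from the rest by Dixon's criterion, and chance alone gives about 1 in 20 groups. That rate holds for independent, normally distributed groups, whereas these share libraries and come from called members only. The 7 are therefore not shown to be an excess. Of these 4 belong to the Bcl6 table at 9 weeks. Cyp4f17 stood at 611 in floxed sample 3, against 402 to 417 in the other 3 libraries, and at 345 in Prx1-cre sample 3, against 233 to 250.2. Ugt1a1 stood at 11.6 in floxed sample 3, against 2.57 to 3.23. Floxed sample 3 is the library with the highest muscle markers, and the part of these in its values was not tested. Ugt1a6a stood at 2047 in Prx1-cre sample 1, against 1550.2 to 1596, on the side away from the floxed group. In adult wild-type mice Cyp2b10 stood at 2.89 in 22 C sample 2, against 0.808 to 1.08, a gap of few reads. Cyp4f17 stood at 183 in 4 C sample 1, against 157 to 159, and Ugt1a2 at 205 in 22 C sample 3, against 314 to 323.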

How the results depend on the processing

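Over the alternatives that left out no library, the 31 calls of members kept their call and direction in 297 fits and lost the call in 27, and over those that left out 1 library they kept it in 176 and lost it in 100. No call changed sign. Counts of members called moved by over 1.5 times as follows. For temperature at P28 the count of 2 became 0 with the muscle score and 4 with the epithelium score. For TrkA the count of 3 became 1 with a filter of 50 in at least 4 libraries, 5 with library weights and 0 with the muscle score. Under that filter 27 members were tested in place of 39, and Cyp1a1 and Gstm6 were not among them. For Bcl6 at 9 weeks 15 became 24 with library weights or the epithelium score. For adult temperature 7 became 15 with library weights, 14 with the muscle or the epithelium score and 11 with the sex indicator. Calls over all genes moved in the same direction: from 4.45% to 0.554% and 5.68% of genes for temperature at P28, from 14.5% to 35.4% and 24.5% for Bcl6 at 9 weeks, and from 4.47% to 15.4%, 15.6%, 24.3% and 18.4% for adult temperature. For TrkA they went from 2.66% to 3.19%, 8.04% and 0.0252%, the first of these against the direction of the members. The count of members whose Bcl6 effect differed between ages became 2 with a normal reference. With 1 library left out the counts ran from 1 to 2 for temperature at P28, 0 to 7 for TrkA, 3 to 6 for Bcl6 at P25, 8 to 17 for Bcl6 at 9 weeks and 1 to 6 for adult temperature. In the same order calls over all genes ran from 1.43% to 5.84%, 0.782% to 7.77%, 2.18% to 4.97%, 7.77% to 26.2% and 0.297% to 2.9%. Apart from the members that the filter left untested for TrkA, the cause of these shifts was not tested.

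With the replicate number as a block the counts were 0 for temperature at P28, 1 for TrkA, 10 for Bcl6 at 9 weeks and 12 for adult temperature. Calls over all genes moved in the same directions. In the same order they went from 4.45%, 2.66%, 14.5% and 4.47% to 1.92%, 2.16%, 8.68% and 13.7%. At P25 a block by the column code, chosen after seeing the data, gave 5, with 5.45% of all genes called against 3.4% without it. In no table did every pair of same-numbered libraries correlate above 0.1, and not every library correlated best with its own number. Above 0.1 were 3 of 4 pairs of the adult wild-type table (0.501 to 0.768), where same-numbered libraries also matched in whether Xist was high, 3 of 4 of the TrkA table (0.122 to 0.207) and 6 of 7 at P25 (0.102 to 0.600). A sex covariate could not be fitted in the adult Bcl6 table, where all libraries had high Xist, and so entered the P25 table alone, also chosen after seeing the data, when the difference between ages was tested (0 members). At the depths of the P28 libraries, members under about 10 normalized counts rest on few reads.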
